A study of Homo sapiens with 6 samples.

Results

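The histone genes of COV434 cells were examined in RNA-seq of 3 control samples and 3 samples treated with 4HC. Of the 16798 coding genes in the deposited gene table, 71 were taken by symbol alone as core or variant histone genes. They were the H2AC, H2BC, H3C and H4C genes, the numbered H1 and H3 genes, H4-16, H2AZ1, H2AZ2, H2AX, H2AJ, MACROH2A1 and MACROH2A2. The clustered genes made up 56 of the 71, with 4 genes of H1, 14 of H2A, 16 of H2B, 11 of H3 and 11 of H4. On GRCh38, 47 of them lay on chromosome 6 between positions 25726777 and 27900651, and 9 on chromosome 1 between positions 149781306 and 149887965. The other 15 were variant genes, with 4 of H1, 6 of H2A, 4 of H3 and 1 of H4, on 10 chromosomes. By symbol H4-16 fell among the variants, although it codes for an ordinary H4 outside the main clusters.

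COV434 is an immortalized human ovarian line that the labels describe as granulosa cells (GCs). 4HC is an activated form of cyclophosphamide (CTX), whose products alkylate and cross-link DNA. The treated samples carry the label CTX in the genotype and treatment fields and the control samples the label WT, and the same protocol of 15 µM 4HC for 24 h is attached to every sample, so that the groups rest on the sample titles. All samples were grown in the same medium with serum, nothing states whether the 3 samples of a group were separate cultures, and the p-values therefore measure the spread between these samples, which may be technical.

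The libraries held between 16133786 and 16702316 expected counts each. CDKN1A, the cyclin-dependent kinase inhibitor induced by p53, was used as a check of the treatment and rose from 225 ± 7.25 to 783 ± 18.0 CPM (counts per 1000000 counts of a library, TMM-normalized, mean ± SD, n = 3). Of 11 granulosa markers in the table, 2 reached a mean of 1 CPM, which were HSD17B1 and AMH. FSHR, CYP19A1 and FOXL2 were close to 0, with group means of at most 0.0617 CPM. The fibroblast or stroma list summed to between 389 and 411 CPM, most of it from COL3A1, in control and treated samples alike. Its members were uneven, with COL3A1, LUM and DCN at 283, 65.8 and 48.0 CPM in control. COL1A1, COL1A2, PDGFRA and PDGFRB were between 0.205 and 2.88 CPM. FSHR, CYP19A1 and FOXL2, 3 defining markers of the labelled cell type, were thus absent or nearly so, and the cells are called COV434 cells here.

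Histones are the proteins around which DNA is wound. The clustered genes, also called replication-dependent, are transcribed mainly in S phase, when newly made DNA has to be packed. Most of their mRNAs have no introns and end at a conserved stem loop, bound by SLBP, instead of a poly(A) tail. Some of the genes can also give longer polyadenylated mRNAs. The variant genes are transcribed through the cell cycle, most give ordinary polyadenylated mRNAs, and their proteins replace the core histones at particular places or times. H2AX is known for its phosphorylation next to DNA double-strand breaks.

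The stem loop sets the clustered mRNAs apart from other mRNAs, and it was looked for in the GENCODE release 29 transcripts of GRCh38. The search used the histone stem loop consensus on the transcript strand. It was present in at least 1 transcript model of 25 of the 56 clustered genes and of 2 of the 15 variant genes, H2AX and H4-16, compared with 50 of all 19702 genes with a protein-coding transcript (0.254%). Of the 31 clustered genes with no match, 26 had models that stopped at the coding sequence and could not hold the element. H1-2, H2BC12 and H2AC20 were among these. A total of 12 genes of H2A, H2B or H3 shared the form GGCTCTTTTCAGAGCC, while the H4 genes and H2AX had GGCC at its start. The sites of clustered genes described below and of H2AX are shown 5′ to 3′, with the 16-base stem loop in capitals.
H2AC6, chr6:26124666-26124691, plus strand: aaaGGCTCTTTTCAGAGCCcccctac
H2BC5, chr6:26158584-26158609, plus strand: aaaGGCTCTTTTAAGAGCCacgcatg
H2BC21, chr1:149886181-149886206, minus strand: aaaGGCTCTTTTCAGAGCCacccacc
H2AC18, chr1:149842216-149842241, minus strand: aaaGGCTCTTTTCAGAGCCacccacg
H4C15, chr1:149860762-149860787, minus strand: aaaGGCCCTTTTTAGGGCCgaccact
H2AX, chr11:119094891-119094916, minus strand: aaaGGCCCTTTTAAGGGCCaccaccg

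H2AX thus carries the element in a transcript that also runs on for 821 bases beyond it in the shorter of its models. Models of clustered genes shown above ran on as well, for 1114 bases in H2AC6 (protein-coding) and 1729 in H2BC21. That of H2AC18 ended 35 bases after the stem loop. H2BC5 had separate models with and without the stem loop. Its 496-base transcript held the stem loop and ended 39 bases after it, and its 789-base transcript did not hold it.

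The 250 bases before the transcription start were read from the RefSeq promoter table of GRCh38.p14, which held 65 of the 71 members and 27305 genes in all. A gene was counted when any of its listed starts held the motif on either strand. The octamer ATTTGCAT, bound by POU2F1, was found before 24 of 52 clustered genes (46.2%) and before 2.03% of all genes in the table. It was present before 13 of 16 H2B genes and 10 of 13 H2A genes, but before 1 of 10 H3 genes, 0 of 9 H4 genes and 0 of 4 H1 genes. Among the 13 variant genes with an entry it was found before 1, H3-3B. The CCAAT box (CCAAT) stood before 44 of 52 clustered genes and 10 of 13 variant genes, against 37.0% of all genes. The TATA box (TATAAA) stood before 35 of 52 and 6 of 13, against 13% of all genes. An E2F site (TTTCCCGC, TTTGGCGC, TTTCGCGC or TTTGCCGC) stood before 11 of 52 and 0 of 13, against 3.4%. Matches on both strands of a TATA box can overlap each other, and an E2F site can run into a CCAAT box. These matches are letters in a window and not measured binding.

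The windows of 10 pairs of members lay over each other on opposite strands. The windows of H2AC6 and H2BC4 shared 245 bases, and those of H2AC20 and H2BC21 shared 235 bases. The windows of 6 called members, 3 clustered and 3 variant, are shown to give the motifs in their setting, with octamers, CCAAT boxes, TATA boxes and E2F sites in capitals.
H2AC6, chr6:26123922-26124171, plus strand: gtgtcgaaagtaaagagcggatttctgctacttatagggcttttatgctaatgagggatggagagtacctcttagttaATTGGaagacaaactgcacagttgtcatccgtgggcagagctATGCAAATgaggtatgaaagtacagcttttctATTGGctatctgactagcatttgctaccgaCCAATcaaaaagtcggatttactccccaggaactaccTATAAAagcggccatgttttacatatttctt
H2BC21, chr1:149886683-149886932, minus strand: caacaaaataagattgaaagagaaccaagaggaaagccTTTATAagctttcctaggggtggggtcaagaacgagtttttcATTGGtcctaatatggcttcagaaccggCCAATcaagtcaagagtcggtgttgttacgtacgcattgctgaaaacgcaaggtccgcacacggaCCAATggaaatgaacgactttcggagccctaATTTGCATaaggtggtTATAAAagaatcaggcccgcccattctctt
H2BC12, chr6:27146859-27147108, minus strand: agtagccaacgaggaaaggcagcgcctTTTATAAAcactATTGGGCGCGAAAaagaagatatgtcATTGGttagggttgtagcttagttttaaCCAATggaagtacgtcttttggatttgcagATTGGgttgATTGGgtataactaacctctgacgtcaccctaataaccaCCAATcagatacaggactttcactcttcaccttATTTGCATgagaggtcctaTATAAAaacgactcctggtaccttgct
H3-3B, chr17:75779780-75780029, minus strand: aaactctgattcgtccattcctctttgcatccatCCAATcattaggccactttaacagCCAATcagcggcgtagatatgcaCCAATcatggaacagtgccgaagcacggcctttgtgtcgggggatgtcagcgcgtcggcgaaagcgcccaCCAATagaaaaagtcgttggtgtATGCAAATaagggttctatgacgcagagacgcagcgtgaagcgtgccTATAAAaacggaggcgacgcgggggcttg
H2AX, chr11:119095466-119095715, minus strand: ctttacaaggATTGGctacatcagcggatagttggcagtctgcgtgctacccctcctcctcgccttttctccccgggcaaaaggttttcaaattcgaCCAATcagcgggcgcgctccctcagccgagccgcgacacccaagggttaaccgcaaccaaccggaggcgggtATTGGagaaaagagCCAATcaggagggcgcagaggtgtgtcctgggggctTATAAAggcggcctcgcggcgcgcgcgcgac
H1-10, chr3:129316287-129316536, minus strand: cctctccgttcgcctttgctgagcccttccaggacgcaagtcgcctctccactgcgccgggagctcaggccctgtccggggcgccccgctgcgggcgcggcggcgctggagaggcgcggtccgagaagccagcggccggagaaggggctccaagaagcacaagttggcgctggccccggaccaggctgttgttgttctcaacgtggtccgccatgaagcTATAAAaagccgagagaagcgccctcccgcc

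The H2BC12 window held 1 octamer, 6 CCAAT boxes, 3 TATA boxes and 1 E2F site. The H2AC6 window held 1 octamer, 3 CCAAT boxes and 1 TATA box, and the H2BC21 window held 1, 3 and 2 of these. H2AX had 4 CCAAT boxes and 1 TATA box with no octamer. H1-10, which codes for a linker histone outside the clusters, had 1 TATA box and none of the other motifs.

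The clustered genes gave few counts in this data set. Together, the 56 genes took 0.0122% to 0.0124% of the counts in the control samples and 0.00992% to 0.0103% in the 4HC samples. The 15 variant genes took 0.216% to 0.226% of the counts over all 6 samples. On the TPM scale, which accounts for transcript length, the clustered genes summed to 498 ± 11.7 and the variant genes to 3186 ± 73.0 in control samples. H1-2 and H2BC12 accounted for 30.8% and 32.3% of all clustered counts in control. With H2BC21 and H2AC18 they made up 76.0%. A mean count under 10 in both groups was found for 37 of the 56 genes, and 24 had 0 counts in at least 1 sample. None had 0 counts in every sample. Short genes were the rule, as 37 of the 56 spanned at most 600 bases. The sources used here do not give whether polyadenylated RNA was selected or ribosomal RNA depleted, and the part of that step in these levels was not tested.

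**Figure D1:**
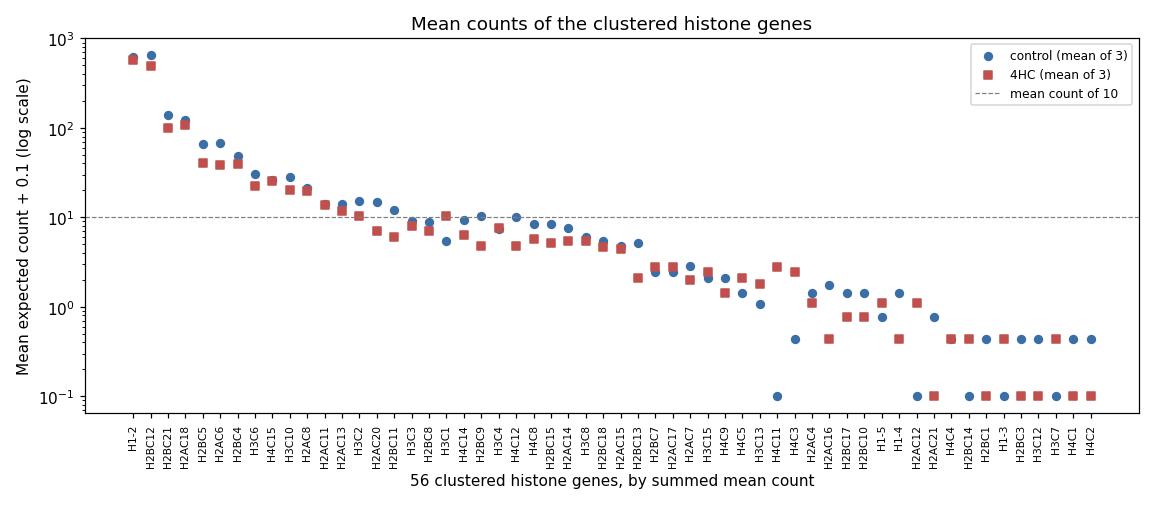
Mean expected count of each of the 56 clustered histone genes (log axis, 0.1 added) in control (circles) and 4HC (squares), 3 samples each. H1-2 and H2BC12 lie near 600 counts, and 37 genes lie below the dashed line at 10 in both groups.

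The filter on low counts left 26 of the 71 members for the test, 15 clustered and 11 variant, and 45 were not tested. A clustered gene that passed only through its higher group was more likely to differ, so the counts over the tested genes describe those genes alone. Of the 26, 4 were higher and 9 lower after 4HC at an adjusted p under 0.05 with edgeR's quasi-likelihood test, compared with 36.4% of all 12368 genes tested. All genes split into 19.2% higher and 17.1% lower. The study called DEGs by a fold change of at least 2 with an unadjusted p under 0.05. With that rule on the edgeR values, 1 of the 26 passed, H2AC20, against 1.15% (142) of all genes. The study used DESeq2 and reported more DEGs than this, so 1.15% is not its own share. No other tested member met that rule.

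Among the clustered genes, 5 of the 15 tested were lower after 4HC and 0 were higher, beside 17.1% lower and 19.2% higher among all genes tested. At an unadjusted p under 0.05 the counts were 6 lower and 0 higher, beside 2635 lower and 2871 higher of all 12368 genes tested. DESeq2, fitted to all 56 clustered genes without the filter on low counts, called 4 lower and 0 higher. Those 4 were H2AC6, H2BC5, H2BC21 and H2BC12, and the share over all genes with DESeq2 is not given here. All 15 had a negative log2 fold change, with a median of -0.40 and a range from -1.06 to -0.04. Of all 12368 genes tested, 6069 were negative. The median over all genes tested was 0.0047 on the same scale. In bulk RNA, fewer cells in S phase and less histone mRNA per cell cannot be told apart. The 5 called genes were H2AC20, H2AC6, H2BC5, H2BC21 and H2BC12, which code for H2A or H2B. Those families also gave 6 and 4 of the 15 genes tested. None of the 3 H3 genes tested, the H4 gene H4C15 or the H1 gene H1-2 passed. The median log2 fold change was -0.48 for the H3 genes, -0.23 for H2A and -0.45 for H2B. H4C15 and H1-2 were at -0.06 and -0.13. The H3 genes had group mean counts of 10.3 to 30.7, so families cannot be set apart by these calls. Reads shared between similar genes can limit the reading of single genes, and how alike the sequences are was not measured here. Of the 5 called genes, only H2BC21 had a fractional count in at least 1 sample.

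H2BC12 (chromosome 6, 27138293 to 27146858) had the most counts of the clustered genes in control cells. Its CPM was 39.6, 40.0 and 40.5 in the control samples and 29.5, 31.1 and 30.4 in the 4HC samples. The groups were apart by more than the spread within either. H2BC12, which codes for an H2B, fell by 0.40 ± 0.06 on the log2 scale (SE), with an adjusted p of 1.12e-07.

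H2AC6 (chromosome 6, 26124172 to 26124690) gave an H2A mRNA at 4.31, 4.00 and 3.98 CPM in control and 2.35, 1.85 and 2.82 CPM after 4HC. Every treated sample was below every control sample. It was lower by 42.9%, a change that was recorded as a log2 fold change of -0.81 ± 0.18 (adjusted p = 3.37e-04). H2BC4, which shares its upstream stretch, stood at 3.00 ± 0.24 CPM in control and 2.38 ± 0.19 CPM after 4HC and was not called (adjusted p = 0.174).

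H2BC5 (chromosome 6, 26158008 to 26172802) was measured at 4.07, 4.31 and 3.68 CPM in control and at 2.72, 2.47 and 2.20 CPM after 4HC. The highest treated sample was below the lowest control sample. The log2 fold change of this H2B gene was -0.70 ± 0.18 (adjusted p = 1.27e-03).

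H2BC21 and H2AC20 stand head to head on chromosome 1. H2BC21 (149884459 to 149886682) codes for an H2B and gave 7.89, 9.17 and 8.51 CPM in control and 7.06, 5.37 and 5.69 CPM after 4HC. The groups did not overlap, and the log2 fold change was -0.49 ± 0.12 (adjusted p = 1.17e-03). H2AC20 (149886918 to 149887411), an H2A gene, rested on far fewer reads, with counts of 16, 11 and 17 in control and 6, 12 and 3 after 4HC. The groups overlapped, as the second treated sample was above the second control sample. Its log2 fold change was -1.06 ± 0.40 (adjusted p = 0.0318), and the call was lost without control sample 1 (0.0904), control sample 3 (0.117), 4HC sample 1 (0.106) or 4HC sample 3 (0.195), and with DESeq2 (0.176).

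H1-2 (chromosome 6, 26055740 to 26056470) codes for a linker histone and gave 38.2 of the 38.3 CPM summed over the 4 clustered H1 genes in control. It stood at 38.8, 37.3 and 38.4 CPM in control and 35.4, 34.6 and 34.8 CPM after 4HC. The groups did not overlap, yet the log2 fold change of -0.13 ± 0.06 missed the threshold in edgeR (adjusted p = 0.0696). It was called on the deposited TPM values with limma (adjusted p = 0.00983). H2AC18 (chromosome 1, 149842218 to 149842750), an H2A gene, ranged from 6.52 to 8.31 CPM in control and from 6.23 to 7.36 CPM after 4HC and was not called (adjusted p = 0.342).

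**Figure D2:**
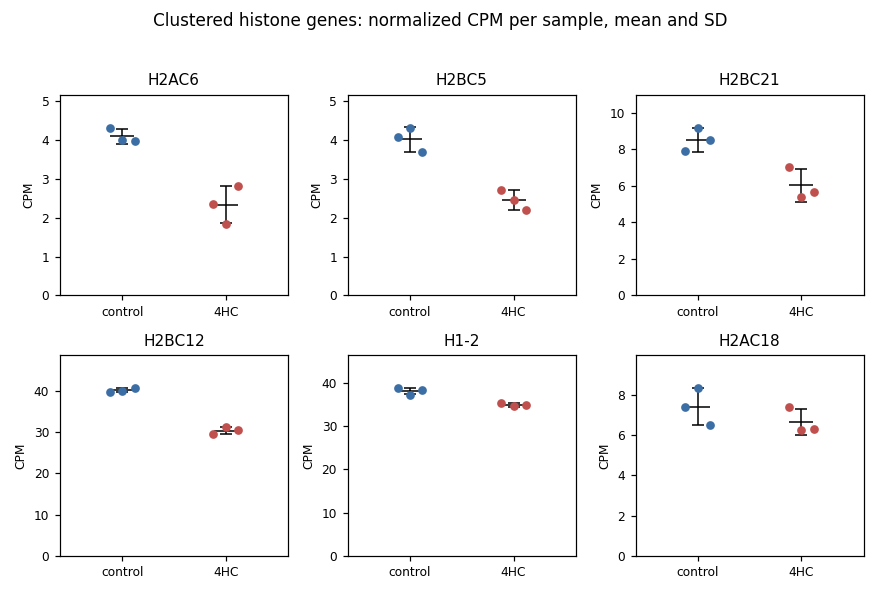
Normalized CPM of the 6 clustered genes that were called without overlap between groups or were among the 4 most abundant, 1 point per sample, with mean and SD of each group of 3 and axes from 0. In H2AC6, H2BC5, H2BC21, H2BC12 and H1-2 every treated sample lies below every control sample, while H2AC18 overlaps.

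Groups that did not overlap were seen in 7 of the 15 clustered genes tested and 9 of the 11 variant genes, compared with 45.3% of all genes tested. The 7 were the 4 called genes above, H1-2, H2BC4 and H3C2. H3C2 codes for an H3 and stood at 0.918 ± 0.113 CPM in control and 0.631 ± 0.0875 CPM after 4HC, with an adjusted p of 0.223. H3C10 and H3C6, the other H3 genes tested, had log2 fold changes of -0.48 ± 0.26 and -0.46 ± 0.25 and were not called, and H4C15 had -0.06 ± 0.25.

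Because a read that fits several copies is divided between them, the members of a class were also summed, and no test was run on the sums. The 56 clustered genes summed to 124, 123 and 125 CPM in control and 102, 99.4 and 98.9 CPM after 4HC, a difference of -19.4%. The treated samples were all below the controls by far more than the spread within a group. Without the 3 most abundant genes the remaining 53 summed to 37.2 ± 0.355 CPM and 28.6 ± 0.937 CPM. The decrease was thus not limited to H1-2, H2BC12 and H2BC21.

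By family the H2B sum went from 59.0 ± 0.995 to 43.3 ± 0.522 CPM, a difference of -26.6%. The H2A sum was 16.7 ± 0.754 CPM in control and 13.2 ± 0.464 CPM after 4HC, and the H1 sum 38.3 ± 0.726 and 35.0 ± 0.447 CPM. In these 3 families no treated sample reached the lowest control sample. The H3 sum of 6.42 ± 0.499 and 5.39 ± 0.558 CPM and the H4 sum of 3.58 ± 0.607 and 3.10 ± 0.475 CPM overlapped between the groups. On the TPM scale the H4 sum did not overlap, at 31.4, 28.9 and 43.3 TPM in control and 26.2, 27.4 and 23.6 TPM after 4HC, a log2 ratio of -0.43 compared with -0.21 on CPM.

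**Figure D3:**
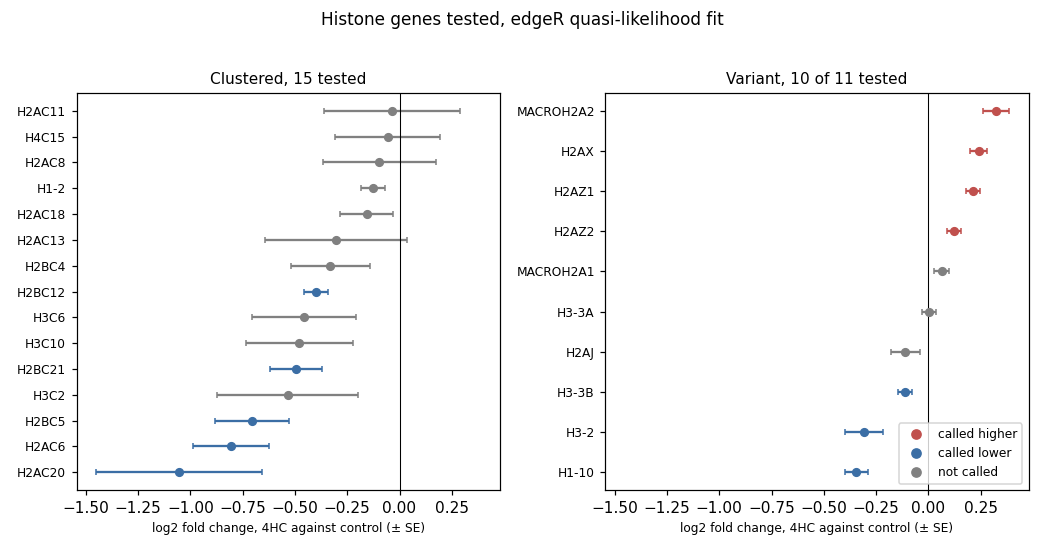
Log2 fold change of 4HC against control with its standard error for the 15 clustered histone genes tested (left) and 10 of the 11 variant genes tested (right), coloured by call. All 15 clustered genes lie below 0 and 5 are called lower, while the variant genes shown split into 4 called higher, 3 called lower and 3 not called.

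Of the 15 variant genes, 11 passed the filter, and 4 were higher and 4 lower after 4HC, beside 19.2% higher and 17.1% lower among all genes tested. H1-7, H1-8, H3-5 and H4-16 were not tested, with means of at most 0.406 CPM. The 4 higher genes all code for forms of H2A. The median log2 fold change over the 11 was 0.0027. None of these 11 genes reached a 2-fold change.

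H1-10 (chromosome 3, 129314771 to 129316286), a replication-independent linker histone, gave 48.8, 52.6 and 49.4 CPM in control and 40.2, 40.8 and 37.9 CPM after 4HC. It was lower by 21.2%, with a log2 fold change of -0.34 ± 0.05 (adjusted p = 8.52e-07), and the groups did not overlap. Per length, H1-10 was at 64.1 TPM in control and the clustered H1-2 at 135 TPM.

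The H2A variants were the only group with higher genes. H2AX (chromosome 11, 119093874 to 119095465), the H2A form that is phosphorylated at double-strand breaks, was at 99.6, 98.0 and 95.0 CPM in control and 114, 120 and 111 CPM after 4HC. Every treated sample was above every control sample. The increase was 18.1%, or 0.24 ± 0.04 on the log2 scale (adjusted p = 5.68e-06). H2AX thus moved the other way from the clustered genes called, and a stem loop was matched in its models as in models of H2AC6, H2BC5 and H2BC21.

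H2AZ1 and H2AZ2 code for closely related forms of H2A.Z, which marks nucleosomes at gene starts. H2AZ1 (chromosome 4, 99948085 to 99950355) gave 397, 410 and 423 CPM in control and 461, 491 and 475 CPM after 4HC. H2AZ2 (chromosome 7, 44826889 to 44848126) gave 245, 244 and 246 CPM and 262, 268 and 271 CPM. Neither gene overlapped between the groups. The log2 fold changes were 0.21 ± 0.03 (adjusted p = 5.50e-07) and 0.12 ± 0.03 (adjusted p = 3.00e-03). H2AZ1 was the most abundant histone gene per length, at 1112 TPM in control, where it ranked 111th among all genes.

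MacroH2A proteins carry a large extra domain and are known from silent chromatin. MACROH2A2 (chromosome 10, 70052846 to 70112282) was at 22.5, 23.4 and 24.0 CPM in control and 28.6, 29.9 and 29 CPM after 4HC. It had the largest rise among the 26 members tested, 25.1% or 0.32 ± 0.06 on the log2 scale (adjusted p = 5.18e-05). MACROH2A1 (chromosome 5, 135334381 to 135402615) was at 196, 191 and 190 CPM and 202, 202 and 200 CPM. Although these groups did not overlap either, the log2 fold change of 0.06 ± 0.04 was not called (adjusted p = 0.156). The TPM ratio of MACROH2A1 to MACROH2A2 was 7.52 ± 0.325 in control and 6.30 ± 0.147 after 4HC.

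H2AJ (chromosome 12, 14774405 to 14778002), an H2A form known to build up in senescent cells, gave 22.6, 25 and 23.2 CPM in control and 21.8, 22.6 and 21.1 CPM after 4HC. The groups overlapped and the gene was not called (-0.11 ± 0.07, adjusted p = 0.218). Together the 6 variant H2A genes summed to 992 ± 9.29 CPM in control and 1110 ± 22.1 CPM after 4HC, a difference of 11.9%. The 14 clustered H2A genes had differed by -21.1%.

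**Figure D4:**
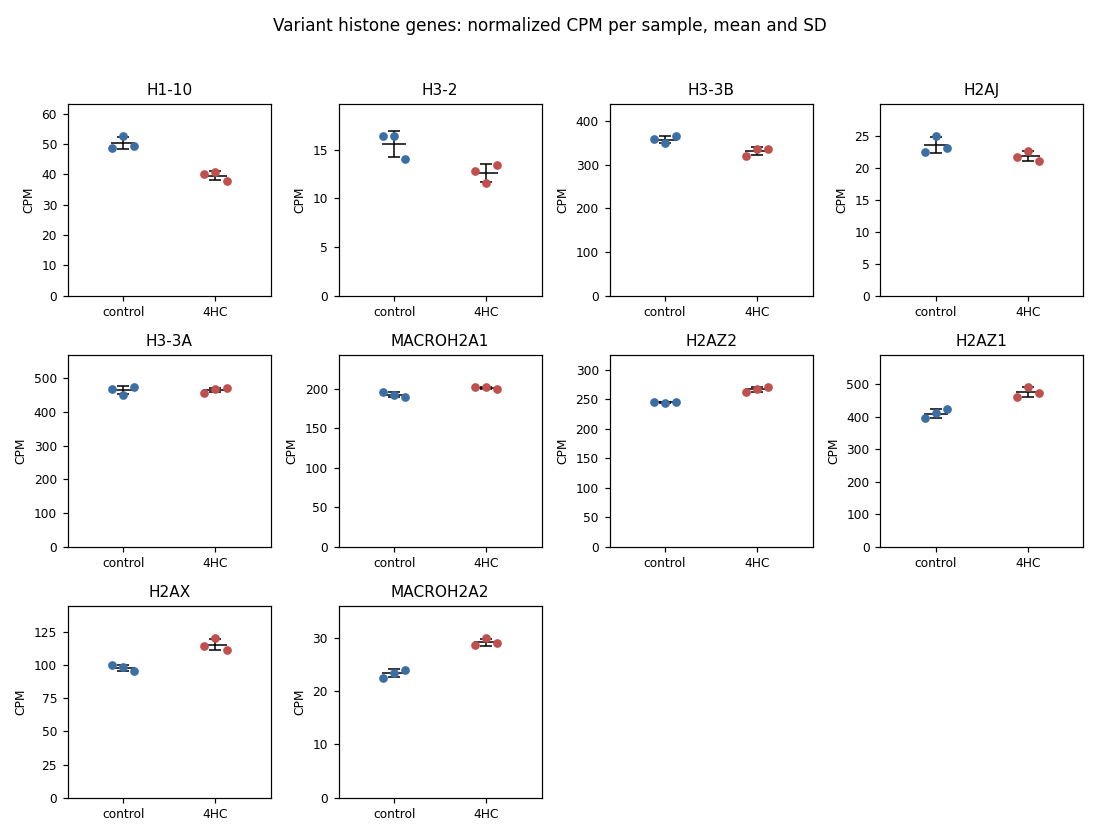
Normalized CPM of 10 variant histone genes at 5 CPM or more, 1 point per sample, with mean and SD of each group of 3, ordered by log2 fold change with axes from 0. H2AZ2, H2AZ1, H2AX and MACROH2A2 are higher in every treated sample.

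The replacement H3 genes moved little. H3-3A and H3-3B code for the same protein, which is deposited outside replication. H3-3A (chromosome 1) gave 468, 451 and 473 CPM in control and 458, 468 and 470 CPM after 4HC, with full overlap (0.0027 ± 0.03 on the log2 scale, adjusted p = 0.955), and its sign turned with other settings. H3-3B (chromosome 17) gave 358, 348 and 365 CPM and 321, 336 and 335 CPM. It was lower by 7.43%, with a log2 fold change of -0.11 ± 0.03 (adjusted p = 6.04e-03), a call that limma on FPKM did not make (adjusted p = 0.0506). The TPM ratio of H3-3A to H3-3B was 4.02 ± 0.0224 in control and 4.35 ± 0.0509 after 4HC.

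H3-2 (chromosome 1), a further H3 gene, gave 16.4, 16.4 and 14.1 CPM in control and 12.8, 11.6 and 13.4 CPM after 4HC. Its counts were called lower (-0.31 ± 0.09, adjusted p = 4.89e-03). The deposited TPM of the gene was 11.7 in control and 11.3 after 4HC, and limma on TPM did not call it (adjusted p = 0.671). The estimates gave 98.9% of its counts in control and 97.0% after 4HC to the transcript NM_001355409. Per length, NM_001355409 went from 10.3 to 8.12 TPM, while NM_001372105 went from 1.42 to 3.16 TPM on mean counts of 2.72 and 6.16. The gene's TPM covers both transcripts, and the cause of the shift between them was not tested.

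The deposited transcript table held 106 transcripts of the members, and 41 of them passed the filter. With edgeR, 2 were called lower and 0 higher, compared with 0.587% lower and 0.706% higher (1.29% in all) of the 42216 transcripts tested. The unadjusted counts were 8 lower and 4 higher, and DESeq2, fitted without that filter, called 4 lower and 4 higher. The shares above are of adjusted edgeR calls and cannot be set beside these counts. Shares over all transcripts for these settings are not given here. Of those called with edgeR, the single listed transcript of H1-10 had a log2 fold change of -0.34 ± 0.05. Its adjusted p was 0.0491, a call that was lost when any one sample was left out. With edgeR, none of the 17 clustered transcripts tested was called. The single transcripts of H2AC6, H2AC20 and H2BC21 (adjusted p = 0.389, 0.848 and 0.411) were not called, although their genes were called lower. Those of H2AX, H2AZ1 and MACROH2A2 (adjusted p = 0.0545, 0.0591 and 0.0748) were not called either, although their genes were called higher. A call thus depended on whether genes or transcripts were fitted.

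For some clustered genes the counts were divided between a short and a long transcript. For H2BC5, the 789-base transcript without the stem loop (NM_138720) had 53.2 ± 4.61 counts in control and 37.2 ± 2.71 after 4HC. The 496-base transcript with the stem loop (NM_021063) had 9.45 ± 0.685 and 2.17 ± 3.75 counts and was not tested. Per length, NM_138720 was at 9.70 TPM and NM_021063 at 4.51 TPM in control. For H2BC4 the long transcript NM_001381989 took 92.1% of the counts in control, and the stem loop transcript NM_003526 took 7.86%. Per length they were alike in control, at 2.06 and 2.08 TPM. The NM_003526 counts varied widely, at 0.09, 2.23 and 9.24 in the control samples. H2BC12 had 91.1% of its control counts on NM_080593, which went from 597 ± 11.4 to 459 ± 21.8 counts and narrowly missed the threshold (adjusted p = 0.053). These divisions are estimates, since a read can fit more than 1 transcript.

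Shared reads could be seen in the table itself. Fractional counts in at least 1 sample were present for 12 of the 71 members, among them H2BC21, H2AC13, H3-3B and H3-2. The deposited counts of H4C14 and of the transcript NM_001034077 of H4C15 had the same mean and SD, 9.33 ± 3.21 in control and 6.17 ± 0.764 after 4HC, and these copies cannot be told apart by such reads. A total of 7 pairs of members overlapped in the deposited coordinates. H2AC13 overlapped with H2AC14, H2BC13, H2BC14 and H3C10, and H2BC12 overlapped with H4C9 over 397 bases. Of these, H2AC13 and H2AC14 had fractional counts, while H2BC12, H4C9, H2BC13, H2BC14 and H3C10 had whole counts in every sample. Overlapping spans may leave values uncertain, but whether reads were shared there was not measured. Strand use in the counting was not given in the sources used here.

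The genes that drive and process clustered histone mRNA were examined as a list of 25, all of which were tested. Of these, 5 were higher, 3 lower and 17 not called, beside 19.2% higher and 17.1% lower among all genes tested. The median log2 fold change of the list was 0.08. The main coactivator of histone transcription, NPAT, gave 34.7, 28.9 and 32.2 CPM in control and 36.6, 42.9 and 42.1 CPM after 4HC. The groups did not overlap (0.34 ± 0.06, adjusted p = 1.77e-05). CDK2 and its partner cyclin E2 (CCNE2), which activate NPAT, were higher as well. CDK2 went from 91.0 ± 0.907 to 123 ± 3.70 CPM and CCNE2 from 22.4 ± 0.222 to 33.9 ± 1.4 CPM. LSM11, a subunit of the U7 particle that trims the histone 3′ end, was 34.8 ± 1.07 and 40.3 ± 0.0654 CPM (0.21 ± 0.06, adjusted p = 2.19e-03). ERI1, an exonuclease that acts on the stem loop, was higher by 0.16 ± 0.05.

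SLBP, which binds the stem loop, was at 107 ± 0.669 CPM in control and 109 ± 0.964 CPM after 4HC and was not called (0.03 ± 0.04, adjusted p = 0.536). CASP8AP2, a cofactor of histone transcription, was not called (0.13 ± 0.06, adjusted p = 0.0646). The 3 lower genes were POU2F1, which binds the octamer (-0.20 ± 0.05), CPSF2, a member of the complex with the 3′ end nuclease (-0.13 ± 0.04), and SRRT, which couples the cap to processing (-0.12 ± 0.04). CCNA2, the S-phase cyclin, stood at 126 ± 7.64 and 134 ± 4.63 CPM and was not called (adjusted p = 0.0984). After 4HC the 5 clustered genes called were thus lower and NPAT, CDK2 and CCNE2 higher, and the link between them was not tested.

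The chaperones that carry, deposit and import histones formed a list of 30, all tested. Of these, 12 were higher, 7 lower and 11 not called, beside the same 19.2% and 17.1% among all genes. The list had a median log2 fold change of 0.06. ASF1B, the H3-H4 chaperone of dividing cells, had the largest change, with 60.6, 67.0 and 66.0 CPM in control and 120, 120 and 109 CPM after 4HC. Its level rose by 0.86 ± 0.05 on the log2 scale (adjusted p = 1.37e-21). ASF1A, its paralog, went the other way, from 39.6 ± 1.54 to 32.6 ± 2.15 CPM (-0.28 ± 0.06, adjusted p = 1.32e-04).

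CHAF1A and CHAF1B, subunits of the assembly factor that places histones behind the replication fork, were both higher. CHAF1A went from 63.9 ± 2.78 to 80.7 ± 1.99 CPM (0.34 ± 0.05, adjusted p = 4.18e-08) and CHAF1B from 42.8 ± 0.0705 to 56.1 ± 2.38 CPM (0.39 ± 0.05, adjusted p = 1.85e-08). MMS22L and TONSL, partners that recognise new histones at damaged forks, were higher by 0.48 ± 0.05 and 0.36 ± 0.06. HAT1, which acetylates new H4, was higher by 0.21 ± 0.04, and DNAJC9, a heat-shock cochaperone of H3 and H4, by 0.23 ± 0.04. The lower genes included IPO4, the importin of H3 and H4 (-0.27 ± 0.04), NPM1, a nucleolar chaperone (-0.20 ± 0.03), and HIRA, which deposits the replacement H3 (-0.17 ± 0.05). NASP and RBBP4, both H3-H4 chaperones, were not called. ANP32E, which removes H2A.Z, was lower (-0.11 ± 0.04) while H2AZ1 and H2AZ2 were higher.

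**Figure D5:**
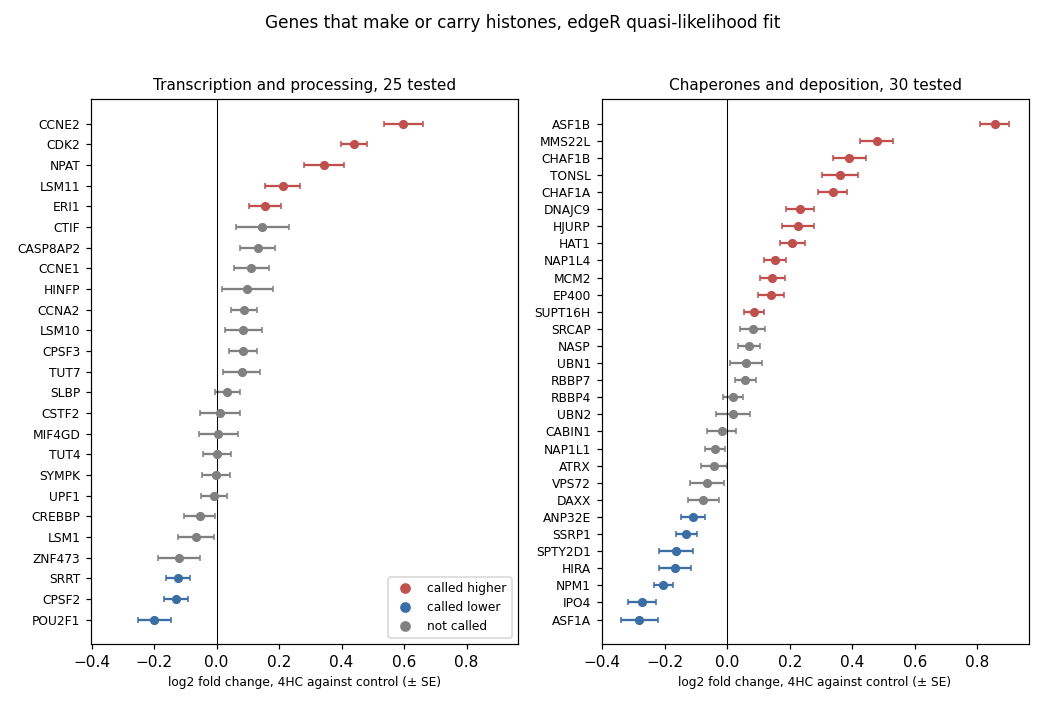
Log2 fold change of 4HC against control with its standard error for 25 genes of histone transcription and mRNA processing (left) and 30 chaperones and deposition factors (right), coloured by call. CCNE2, CDK2 and NPAT lead the left panel with 5 genes called higher and 3 lower, and ASF1B leads the right panel with 12 called higher and 7 lower.

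Histone genes whose symbols the rule did not take were listed as well. Of 15 such genes 7 were in the table and 2 were tested. CENPA, the H3 form of the centromere, gave 27.3, 32.1 and 33.7 CPM in control and 25.5, 24.8 and 23.0 CPM after 4HC. The groups did not overlap (-0.35 ± 0.07, adjusted p = 5.09e-05). HJURP, the chaperone that deposits CENPA, was higher by 0.23 ± 0.05. H2AW stood at 4.97 ± 0.0814 and 4.71 ± 0.429 CPM and was not called (adjusted p = 0.696).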

How the data were processed

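RNA of 6 COV434 samples, 3 control and 3 4HC, was sequenced. The authors filtered reads with SOAPnuke and used the Dr. Tom system. The submitters' processing notes name HISAT2, Bowtie2, RSEM 1.3.1, DESeq2 1.4.5 and GRCh38.p13, without roles. Library selection and strand use are not given in the sources used here. The authors deposited an expected count, a TPM and an FPKM for each of 16798 coding genes, and for 79213 transcripts. The expected counts are not normalized (85.5% whole), TPM is scaled to transcript length and library, and FPKM to length and depth, by the authors. The deposited log2 fold changes, p-values and q-values of the authors and a duplicate gene table were not used.

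Expected counts were rounded and fitted with edgeR 4.0.16 in R 4.3.3 (TMM, filterByExpr, quasi-likelihood test, condition as the only term) over all genes or transcripts. The adjusted p is that of Benjamini and Hochberg over everything tested, with a threshold of 0.05. SE is the fold change divided by the root of the F statistic. Groups came from sample titles. Depth was 16133786 to 16702316 counts per sample, and 3 counts, the limit that 0 counts allow, are 0.18 to 0.186 CPM, for counting error only.

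Alternatives were DESeq2 1.42.0, other scalings and filters, limma 3.58.1 on log2 TPM or FPKM with a pseudocount of 1 or 0.1, a replicate block, and leaving out each sample. The test was tried on simulated counts first. Stem loops were searched in GENCODE 29 transcripts and motifs in RefSeq promoters (GRCh38.p14). The members and gene lists were chosen with earlier results of these data known. Per-sample values are given for clustered members called without overlap, the 4 most abundant clustered members and variants at 5 CPM or more, except for 1 gene that is counted but not reported here. Of the lists, 7 genes were always named, with the 4 largest called changes per list. H2AC20, ASF1A and other list members were named after their values were seen.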

Additional observations from a re-analysis of the deposited data

How the results depend on the processing

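Over 30 genes and their alternatives, 444 of 479 values kept direction and side of the threshold, 16 lost the call, 10 gained it and 9 changed sign. All 9 were of H3-3A, near 0, at -0.0032 with DESeq2, -0.0024 with its size factors, -0.00036 without the filter, -0.0077 with limma on TPM (pseudocount 1, 0.1 or no filter) and between -0.019 and 0.016 when 1 sample was left out, negative without control sample 2, 4HC sample 2 or 4HC sample 3. H2AC20 lost its call in 7 settings, H3-2 in the 4 limma settings, H3-3B with limma on FPKM, and LSM11, MMS22L, NPAT and TONSL with limma without the filter. Clustered genes lower numbered 8 with limma on TPM (pseudocount 1 or 0.1) or FPKM and 9 with limma without the filter. Clustered genes higher numbered 1 without the filter in edgeR (H4C11) and in limma (H3C1). Variants lower numbered 2 with limma on FPKM. Regulators higher numbered 2 with limma without the filter, and lower 1 on TPM and 0 on FPKM. Chaperones higher numbered 7 with limma without the filter, and lower 4 in all limma settings. Histone genes outside the rule lower numbered 2 with limma without the filter. All genes lower numbered 1343 with limma on FPKM and 1411 without the filter. Transcripts higher numbered 4 with DESeq2 and 3 with at least 10 counts in every sample, and transcripts lower 4 with DESeq2. The log2 ratio of the clustered sum was -0.35 on TPM and -0.29 by library size only, that of H2B -0.52 and that without the 3 most abundant genes -0.43 on TPM, and that of all variants turned to 0.018 on TPM. Leaving out 1 sample gave 4 to 6 clustered genes lower and 1 transcript lower. The cause of these shifts was not tested. Same-numbered samples correlated at 0.009, 0.069 and 0.03 in their deviations, and the other pairs lay between -0.08 and 0.045. Whether same-numbered samples shared a culture or batch cannot be told from such values, and the main fit used no pairing. The replicate block gave 4 clustered genes lower, without H2AC20 (adjusted p = 0.0687), 4 variants in each direction and 0 transcripts lower. The 45 members that were not tested had too few counts for the filter at this depth, and why their counts were low was not tested.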
